A study of Mus musculus with 12 samples.

Results

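The 56 genes described here encode proteins that act when a cell passes from G2 into mitosis and divides, namely the mitotic cyclins and their kinase, the Polo and Aurora kinases, the spindle checkpoint, the machinery of anaphase, the kinetochore, the spindle and its kinesins, the contractile ring of cytokinesis, and a few proteins of the mitotic chromosome and its transcription programme. They were taken by symbol from a list drawn up for their function, and each of the 56 symbols matched exactly 1 of the 54532 genes measured. The genes lie on 17 chromosomes, with 9 on chromosome 2. They were sorted here into 11 classes by role.

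The samples were colonoids, organoids grown from colonic epithelial cells of young adult mice on a C57BL/6 background and kept in a medium conditioned by L-WRN cells, which secrete Wnt3a, R-spondin and noggin. Control colonoids came from *Hmox1* fl/fl mice, whose gene for heme oxygenase 1 carries loxP sites, without Cre. The others came from mice labelled KO (Hmox1ΔIEC), in which Cre driven by the *Vil1* promoter acts on the same floxed gene in epithelial cells of the small and large intestine. Both genotypes received vehicle or hemin, the oxidised and chloride-bound form of heme, at 200 µM for 24 hours. RNA selected by poly-T beads was sequenced in 3 libraries for each of the 4 groups, 12 in all. The genotype label of replicate 3 of the hemin-treated KO group is worded differently from that of its group, as floxed alleles with *Vil1* Cre. No source used here says whether the 3 libraries of a group came from separate animals, lines or wells, so that p-values measure the spread between libraries, which may be technical.

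Entry into mitosis is driven by CDK1 bound to cyclin A or cyclin B, with Polo-like and Aurora kinases that help to build the spindle and correct its attachments. Kinetochores assemble on centromeres and hold the microtubules, and the spindle checkpoint restrains the anaphase-promoting complex until every chromosome is attached. The complex, with CDC20, then marks securin and cyclin B for destruction, sisters separate, and a contractile ring divides the cell. In the colon, dividing cells sit in the lower crypt and colonocytes stop dividing as they mature, so that these genes are commonly read as a sign of how much of an epithelium is cycling.

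Genes of this group are transcribed late in the cell cycle, and their promoters are known for CCAAT boxes, bound by the factor NF-Y, and for the cell cycle homology region (CHR), through which the DREAM complex represses and the MYBL2 and FOXM1 complexes activate them. Promoter windows of 250 bases before and 50 after the start were taken from RefSeq for the build GRCm38.p6, the patch series of mm10. A window was present for 48 of the 56 genes, 42 of them with 1 window. *Cdc25c*, *Spc24*, *Incenp*, *Kif20a*, *Tpx2*, *Foxm1*, *Aurkb* and *Ccna2* had no window in the table. The 150 bases before the start are shown for 7 genes, with CCAAT (or ATTGG, its reverse) and the CHR (TTTGAA, its reverse TTCAAA, or TTCGAA) in capitals. *Cdk1*, *Cdc20*, *Top2a* and *Ube2c* are shown as members with both elements close to the start, *Bub3* as the one with both that kept most of its level under hemin in control, and *Mybl2* and *Pttg1* as members with neither that lay at the opposite ends of the response to hemin in control.
Cdk1: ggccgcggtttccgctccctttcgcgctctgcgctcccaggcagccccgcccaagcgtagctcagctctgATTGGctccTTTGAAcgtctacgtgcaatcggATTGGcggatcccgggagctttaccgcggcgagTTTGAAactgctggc
Cdc20: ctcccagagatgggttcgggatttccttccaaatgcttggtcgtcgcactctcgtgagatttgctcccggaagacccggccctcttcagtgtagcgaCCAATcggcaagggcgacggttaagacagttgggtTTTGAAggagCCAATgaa
Top2a: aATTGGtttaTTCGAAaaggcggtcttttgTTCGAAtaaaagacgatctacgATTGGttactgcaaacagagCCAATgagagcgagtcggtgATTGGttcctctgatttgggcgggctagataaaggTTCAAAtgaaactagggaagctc
Ube2c: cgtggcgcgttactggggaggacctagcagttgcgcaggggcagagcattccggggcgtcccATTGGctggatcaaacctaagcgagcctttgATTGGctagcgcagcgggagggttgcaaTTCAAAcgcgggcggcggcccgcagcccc
Bub3: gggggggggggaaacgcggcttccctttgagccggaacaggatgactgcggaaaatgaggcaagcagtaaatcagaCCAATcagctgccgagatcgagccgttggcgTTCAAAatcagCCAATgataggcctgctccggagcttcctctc
Mybl2: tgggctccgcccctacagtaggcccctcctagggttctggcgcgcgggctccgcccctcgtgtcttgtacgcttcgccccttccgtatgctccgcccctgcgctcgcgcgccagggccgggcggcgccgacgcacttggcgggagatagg
Pttg1: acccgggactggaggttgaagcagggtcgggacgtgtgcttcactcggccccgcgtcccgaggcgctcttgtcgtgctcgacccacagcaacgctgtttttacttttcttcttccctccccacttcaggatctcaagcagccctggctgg
The stretches lie at chr10:69352913-69353062, - strand, chr4:118437344-118437493, - strand, chr11:99024190-99024339, - strand, chr2:164769779-164769928, + strand, chr7:131560220-131560369, + strand, chr2:163054485-163054634, + strand, and chr11:43425982-43426131, - strand, in the order shown, each read 5′ to 3′ on the strand of its gene. *Bub3* had 2 windows in the table and the first is shown.

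Over the whole 300-base windows on either strand, CCAAT was present in 34 of the 48 genes (70.8%), against 41.1% of the 27025 genes in the table, and 22 of the 48 (45.8%) held at least 2, against 13.3%. The CHR letters were present in 36 of 48 (75.0%), against 21.7% of all genes. Both were present in 30 of 48 (62.5%), against 9.65% of all genes. Motifs of the E2F type (TTCCCGC, the related letters TTGGCGC and the further variant TTCGCGC), which are better known from genes of S phase, were present in 10 of 48 (20.8%), against 9.20%. None of the letters searched was found in 8 of 48 genes (16.7%), against 42.6% of all genes, and these were *Birc5*, *Cit*, *Knstrn*, *Mad2l1*, *Mybl2*, *Nuf2*, *Nusap1* and *Pttg1*. Other forms of these motifs were not searched for, so that these genes may hold them. Matches that share letters, as a reversed CCAAT and an E2F motif can, were each counted. These are counts of letters and not of bound sites.

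Each library held between 11648801 and 25101868 fragments on genes, and the hemin-treated control libraries were the smallest. The unit is FPKM, the fragments on a gene scaled by its length and by a library size that the authors adjusted between libraries, which allows levels to be compared between genes as well as between libraries. A noncoding RNA, *Gm23935*, took 16.8% of the summed FPKM in replicate 1 of vehicle-treated control, 29.0% in replicate 1 of hemin-treated control and 21.0% in replicate 2 of the hemin-treated KO group, against 1.18% to 2.81% in the other 9 libraries. *Hmox1* stood at 7.62, 6.85 and 7.9 FPKM in control with vehicle and at 3.14, 2.11 and 2.31 in those labelled KO with vehicle. With hemin it stood at 503, 483 and 382 in control and at 1279, 1392 and 1271 in those labelled KO, which goes against the label, although FPKM of a whole gene do not show which exons were read. The genotype is therefore written below as labelled KO. The 8 epithelial markers, among them *Epcam* and *Vil1*, were all tested and summed to between 8221 and 9199 FPKM in control with vehicle, 7917 and 10048 in control with hemin, 5873 and 5909 in those labelled KO with vehicle and 7434 and 8650.2 in those labelled KO with hemin. With vehicle, 4 of the 8 passed as lower in those labelled KO, against 16.8% of all genes, and 0 as higher, against 17.4%. With hemin against vehicle, 3 passed as higher and 0 as lower in control (23.2% and 26.7% of all genes). In those labelled KO, 6 passed as higher and 2 as lower with hemin (29.9% and 30.4%). The part of these differences in the results was not tested. The summed levels of 6 fibroblast, 6 immune and 4 endothelial markers reached at most 0.0791, 0.733 and 0.283 FPKM.

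The mitotic genes took the largest share of the library in colonoids labelled KO with vehicle and the smallest in control with hemin. All 56 genes together accounted for 0.407% to 0.444% of fragments in control with vehicle, 0.127% to 0.151% in control with hemin, 0.539% to 0.546% in those labelled KO with vehicle and 0.175% to 0.205% in those labelled KO with hemin. The 4 ranges did not overlap. The median FPKM over the 56 genes was 10.4 ± 0.860 (SD, n = 3) in control with vehicle, 3.69 ± 0.217 in control with hemin, 13.2 ± 0.176 in those labelled KO with vehicle and 5.34 ± 0.418 in those labelled KO with hemin. In 50 of the 56 genes the group means followed this order, with control with hemin lowest, then labelled KO with hemin, control with vehicle, and labelled KO with vehicle highest. The exceptions were *Kif23*, *Cep55* and *Mybl2*, in which control with vehicle was highest, *Ccnb2* and *Kif15*, in which labelled KO with hemin was lowest, and *Spc25*, in which labelled KO with hemin exceeded control with vehicle. In RNA from whole colonoids, fewer dividing cells and less mitotic RNA in each cell cannot be told apart. Because hemin was given to both genotypes, the comparisons between treatments and between genotypes share libraries, and the values of each are given side by side.

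**Figure D1:**
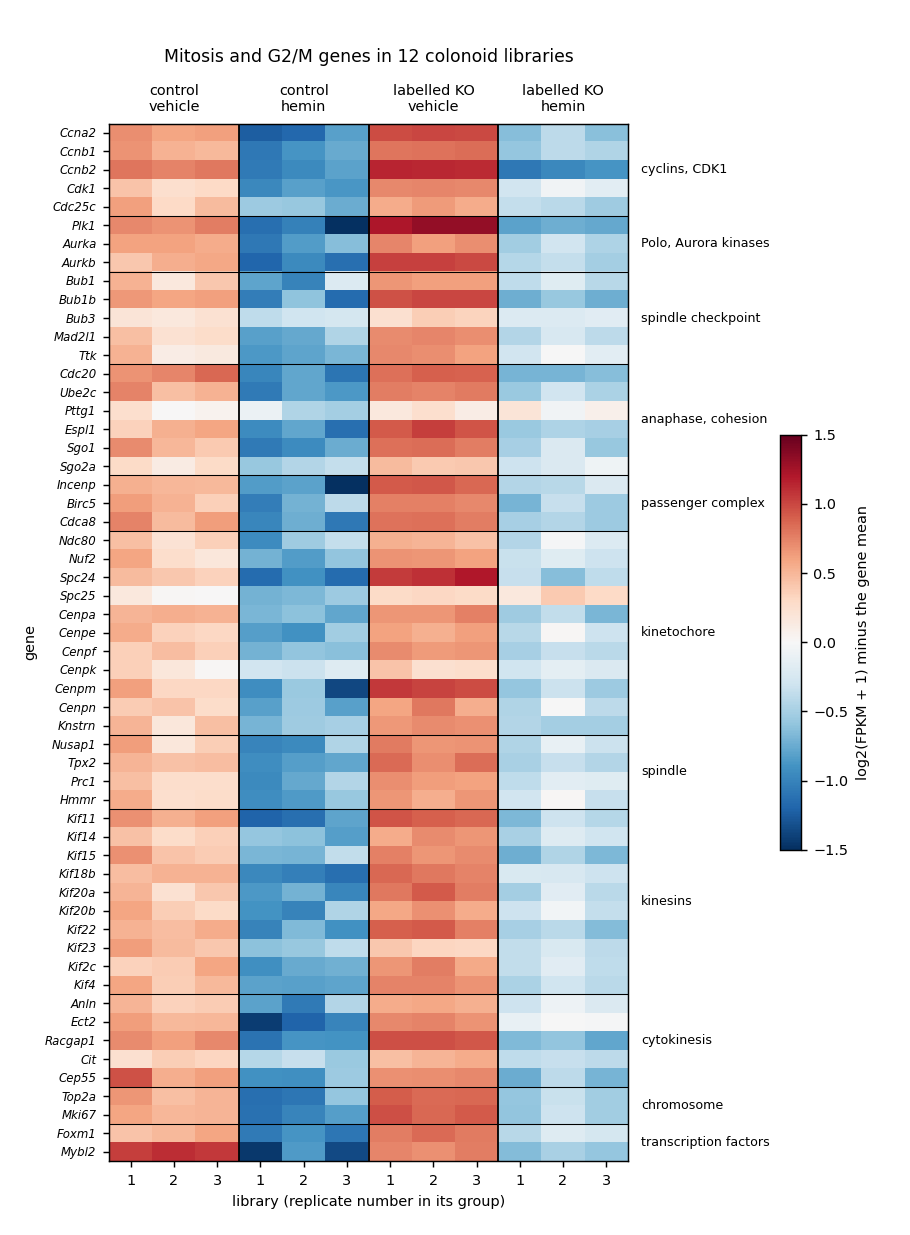
Level of each of the 56 mitotic genes (rows, grouped by role) in the 12 libraries (columns, 3 for each group), as log2(FPKM + 1) minus the gene's mean over the 12 libraries, with the colour scale ending at -1.5 and 1.5. Most rows are blue in both hemin groups and red in both vehicle groups, and darkest red in the vehicle libraries labelled KO, with Mybl2 darkest in control with vehicle instead and Spc25 and Pttg1 showing the least contrast between treatments in the libraries labelled KO.

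Hemin lowered all 56 genes in control colonoids and 54 of them in colonoids labelled KO. In the limma fit of log2(FPKM + 1) over all 12740 genes tested, with adjusted p under 0.05 by the Benjamini-Hochberg method as the threshold, 56 of 56 passed as lower in control, where 26.7% of all genes tested did. In those labelled KO, 54 of 56 passed as lower, against 30.4% of all genes. Of these, 48 in control and 34 in those labelled KO were lower by more than 1 on the log2 scale, against 5.93% and 8.07% of all genes. In both genotypes 33 genes did so, a joint count for which no share of all genes was computed. The counts of 48 and 34 depend on the scale. They came to 52 and 43 with a pseudocount of 0.1 (9.92% and 12.3% of all genes), to 52 and 53 in TPM (11.3% and 18.3%), to 52 and 51 in TPM without *Gm23935* (10.2% and 15.5%), and to 52 and 44 by limma-voom on fragments (10.3% and 13.1%). The groups did not overlap for 56 genes in control and for the 54 that passed in those labelled KO, against 27.8% and 37.2% of all genes that were lower without overlap. Over the 56 genes the log2 fold change had a median of -1.23 in control and -1.12 in those labelled KO, where that of all genes was -0.013 and -0.0019. These are differences on the log2(FPKM + 1) scale, which understates the change of genes with low levels. On the FPKM scale, the hemin mean was a median of 34.9% of the vehicle mean in control, from 15.0% for *Mybl2* to 68.8% for *Pttg1*. In those labelled KO it was a median of 40.5%, from 22.1% for *Ccnb2* to 99.4% for *Spc25*. Genes with higher vehicle levels had somewhat lower ratios of hemin to vehicle (Spearman's rho over the 56 genes -0.30 in control and -0.34 in those labelled KO). The vehicle mean is also the denominator of that ratio, which alone tends to make this rho negative, so no conclusion is drawn from it. The ratios of the 2 genotypes, which share no library, had a rho of 0.66. Genes of 1 library share its depth and preparation, so both are descriptions.

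**Figure D2:**
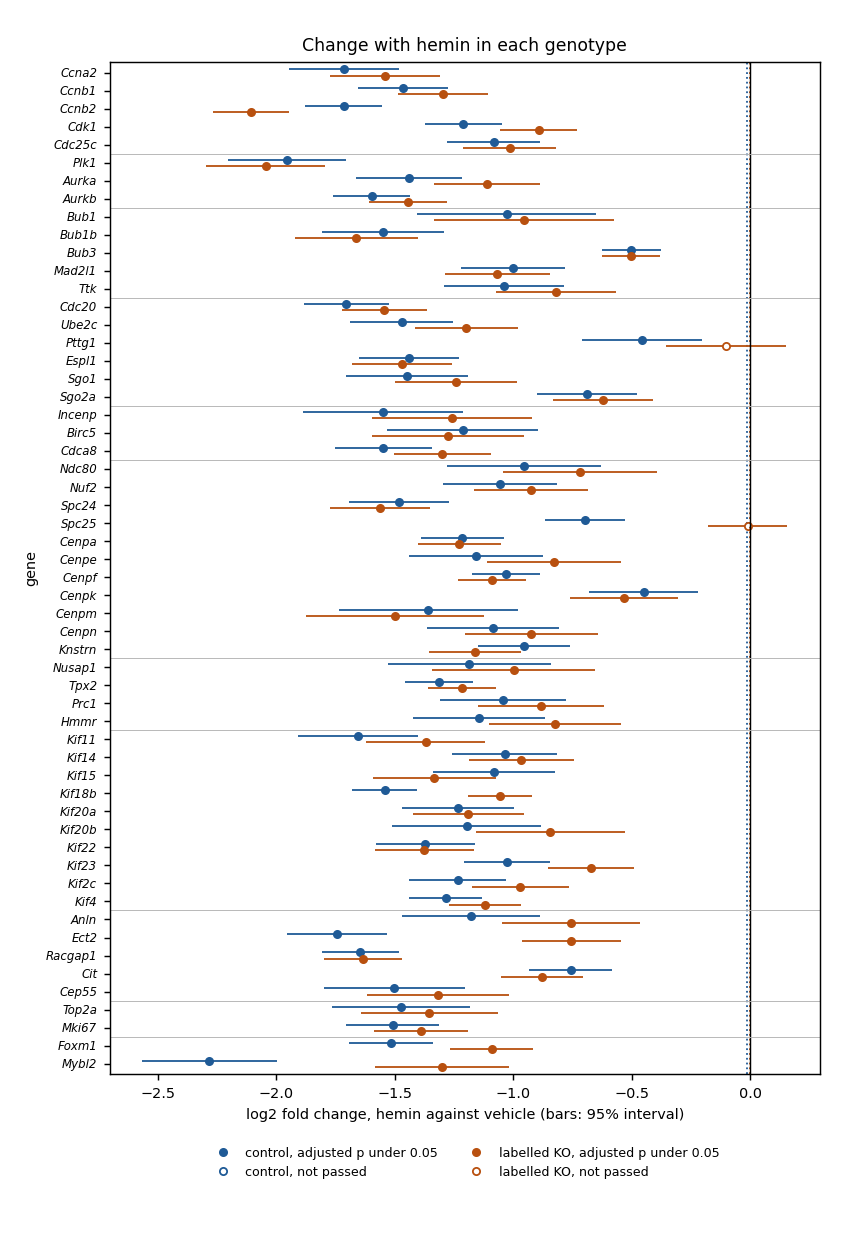
Log2 fold change of hemin against vehicle (horizontal axis) for each of the 56 mitotic genes (rows), in control colonoids (blue) and those labelled KO (orange), with 95% intervals; filled points passed at an adjusted p under 0.05 and dotted lines mark the median of all genes. All points lie below 0, Mybl2 lies farthest left in control at -2.28, and the open points are Pttg1 and Spc25 in those labelled KO.

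The 5 genes of the cyclin and CDK1 class all fell in both genotypes. *Ccnb1*, cyclin B1, which activates CDK1 for entry into mitosis, stood at 27.3, 24.4 and 23.9 FPKM in control with vehicle and 7.4, 8.6 and 9.5 with hemin, and at 30.03, 30.3 and 30.7 and 10.9, 12.5 and 11.9 in those labelled KO. The hemin libraries lay under all vehicle libraries in both genotypes, and the fall was 1.47 ± 0.09 (SE) on the log2 scale in control (limma adjusted p = 2.77e-07) and 1.30 ± 0.09 in those labelled KO (limma adjusted p = 3.29e-07). *Ccnb2*, cyclin B2, stood at 54.3, 51.8 and 53.5 FPKM in control with vehicle and 14.1, 15.3 and 17.2 with hemin, and at 68.8, 68.4 and 67.7 and 13.97, 15.2 and 16.2 in those labelled KO. Libraries labelled KO were thus the higher ones with vehicle and not with hemin, and their fall of 2.11 ± 0.07 was the largest of the 56 genes (limma adjusted p = 2.63e-09). With hemin the genotypes overlapped. *Ccna2*, cyclin A2, which acts with CDK2 in S phase and with CDK1 in G2, stood at 40.5, 37.6 and 38.2 FPKM in control with vehicle and 9.83, 10.3 and 13.5 with hemin, and at 49.05, 50.2 and 49.6 and 15.4, 18.4 and 15.5 in those labelled KO. Hemin left 28.95% of its vehicle mean in control and 33.1% in those labelled KO. *Cdk1* itself kept 39.5% and 51.7%, and *Cdc25c*, a phosphatase that activates CDK1, kept 40.5% and 43.8%.

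*Plk1*, which encodes Polo-like kinase 1, needed for centrosome maturation and for cytokinesis, was the kinase that changed most. It stood at 51.7, 50.3 and 53.5 FPKM in control with vehicle and 13.7, 14.8 and 9.89 with hemin, and at 73.5, 78.7 and 78.8 and 17.5, 18.3 and 17.9 in those labelled KO. No vehicle library came near a hemin library, and the fall was 1.95 ± 0.11 on the log2 scale in control (limma adjusted p = 2.56e-07) and 2.05 ± 0.11 in those labelled KO (limma adjusted p = 8.99e-08). Under vehicle *Plk1* was also higher in those labelled KO than in control by 0.56 ± 0.11 (limma adjusted p = 0.00263). *Aurkb*, Aurora B, the kinase of the chromosomal passenger complex, stood at 19.5, 21.6 and 22.2 FPKM in control with vehicle and 5.8, 7.0 and 6.1 with hemin, and at 30.5, 30.5 and 29.7 and 10.5, 11.1 and 9.91 in those labelled KO. The 4 groups were separate from one another, and labelled KO was higher than control by 0.50 ± 0.07 with vehicle and 0.66 ± 0.07 with hemin (limma adjusted p = 3.10e-04 and 4.50e-05). *Aurka*, Aurora A, the kinase of the spindle poles, stood at 22.7, 22.7 and 21.9 FPKM in control with vehicle and 6.41, 7.68 and 9.03 with hemin, and at 24.9, 22.9 and 24.3 and 9.8, 11.7 and 10.3 in those labelled KO. Its genotype difference was 0.10 ± 0.10 with vehicle, which did not pass (limma adjusted p = 0.52), and 0.42 ± 0.10 with hemin (limma adjusted p = 0.00783).

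The 5 genes of the spindle checkpoint fell in both genotypes, by unequal amounts. *Bub3*, which binds BUB1 and BUBR1 and brings them to kinetochores, had the smallest fall of the class. It stood at 13.8, 13.6 and 14.2 FPKM in control with vehicle and 9.02, 9.62 and 9.88 with hemin, and at 14.3, 15.8 and 15.4 and 10.3, 10.3 and 10.6 in those labelled KO. The hemin mean was 68.6% of the vehicle mean in each genotype, with a fall of 0.50 ± 0.06 (limma adjusted p = 2.84e-05) in control and 0.50 ± 0.06 in those labelled KO (limma adjusted p = 1.70e-05). *Bub1b*, which encodes the checkpoint protein BUBR1, stood at 16.5, 15.8 and 16.1 FPKM in control with vehicle and 4.45, 6.33 and 4.0 with hemin, and at 20.7, 21.3 and 21.2 and 5.72, 6.51 and 5.72 in those labelled KO. Its fall was 1.55 ± 0.12 in control and 1.66 ± 0.12 in those labelled KO (limma adjusted p = 1.62e-06 and 5.21e-07), the third largest of the 56 genes in the latter. *Bub1*, a checkpoint kinase, stood at 7.77, 5.83 and 7.1 FPKM in control with vehicle and 2.54, 2.06 and 4.29 with hemin, and at 8.65, 8.4 and 8.33 and 3.7, 4.38 and 3.59 in those labelled KO. Replicate 3 of control with hemin was high for *Bub1*, the group's coefficient of variation of 39.6% was the largest of the 56 genes, and the fall of 1.03 ± 0.17 still passed (limma adjusted p = 5.11e-04). *Mad2l1*, whose product MAD2 blocks CDC20, and *Ttk*, the MPS1 kinase that starts the signal, kept 42.6% and 36.8% of their vehicle means in control, and 41.97% and 49.96% in those labelled KO.

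Of 6 genes of anaphase and sister cohesion, all 6 fell in control and 5 in those labelled KO. *Cdc20*, the activator of the anaphase-promoting complex, had the highest level of the 56 genes. It stood at 77.1, 80.7 and 88.3 FPKM in control with vehicle and 23.98, 27.7 and 22 with hemin, and at 85.99, 89.9 and 89.3 and 29.3, 29.1 and 30.5 in those labelled KO. Hemin left 29.9% of the vehicle mean in control and 33.5% in those labelled KO, while the vehicle libraries of the 2 genotypes overlapped. *Ube2c*, the ubiquitin-conjugating enzyme of that complex, stood at 58.2, 47.4 and 49.5 FPKM in control with vehicle and 15.9, 19.6 and 18.4 with hemin, and at 59, 58.1 and 59.7 and 23.1, 27.9 and 24.5 in those labelled KO. Its fall was 1.47 ± 0.10 in control and 1.20 ± 0.10 in those labelled KO (limma adjusted p = 7.03e-07 and 1.63e-06). *Pttg1*, which encodes securin, the inhibitor of separase, passed in control alone. It stood at 6.55, 5.38 and 5.6 FPKM in control with vehicle and 4.95, 3.64 and 3.47 with hemin, and at 6.06, 6.54 and 5.85 and 6.25, 5.1 and 5.68 in those labelled KO. In control the fall of 0.46 ± 0.11 passed (limma adjusted p = 0.00676), although the 2 groups were close, whereas in those labelled KO the libraries overlapped and the difference was -0.10 ± 0.11 (95% interval -0.35 to 0.15, limma adjusted p = 0.47). Between 81 and 240 fragments lay behind each of its values, against 480 to 2904 for *Cdc20*. The test of the difference between genotypes in this response did not pass for *Pttg1* (0.36 ± 0.16, limma adjusted p = 0.145). *Espl1*, separase, the protease that opens cohesin, kept 25.6% of its vehicle mean in control and 28.1% in those labelled KO, and the shugoshins *Sgo1* and *Sgo2a*, which protect centromeric cohesion, kept 26.6% and 35.1% in control, and 35.2% and 45.2% in those labelled KO.

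The 3 partners of Aurora B in the chromosomal passenger complex fell in both genotypes. *Incenp*, the scaffold of the complex, stood at 28.2, 27.6 and 27.3 FPKM in control with vehicle and 10.4, 10.6 and 6.15 with hemin, and at 37.2, 37.6 and 35.7 and 13.97, 14.2 and 16.4 in those labelled KO. Replicate 3 of control with hemin was the lowest of all 12 libraries, and the fall there was 1.55 ± 0.15 (limma adjusted p = 1.17e-05) against 1.26 ± 0.15 in those labelled KO (limma adjusted p = 3.42e-05). *Birc5*, survivin, stood at 21.8, 20.1 and 17.9 FPKM in control with vehicle and 6.21, 8.0 and 10.2 with hemin, and at 24.02, 23.9 and 23.4 and 8.12, 10.6 and 9.1 in those labelled KO. For *Birc5* the same replicate 3 was the highest of its group, and hemin left 40.9% and 39.04% of the vehicle mean. *Cdca8*, borealin, stood at 15.7, 12.8 and 14.4 FPKM in control with vehicle and 4.05, 4.98 and 3.72 with hemin, and at 16.6, 16.7 and 15.99 and 6.02, 6.36 and 5.83 in those labelled KO. The genotype difference in the passenger class passed for 0 of 3 genes with vehicle and for *Incenp* and *Cdca8* with hemin (0.69 ± 0.15 and 0.44 ± 0.09, limma adjusted p = 0.00486 and 0.00392). Of all genes, 17.4% passed as higher in those labelled KO with vehicle and 19.7% with hemin.

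Among 11 kinetochore and centromere genes, all 11 fell in control and 10 in those labelled KO. *Cenpa*, the histone H3 variant that marks centromeres, stood at 13.02, 13.4 and 13.1 FPKM in control with vehicle and 5.12, 5.44 and 4.75 with hemin, and at 14.6, 14.6 and 15.6 and 5.78, 6.59 and 5.11 in those labelled KO. It fell by 1.21 and 1.23 on the log2 scale, nearly alike in the genotypes. *Knstrn*, a kinetochore and spindle protein, stood at 11.5, 8.93 and 11.05 FPKM in control with vehicle and 4.42, 5.08 and 5.24 with hemin, and at 12.8, 13.3 and 13.1 and 5.49, 5.18 and 5.19 in those labelled KO. On the log2(FPKM + 1) scale it was the 1 gene of the 56 that fell by more than 1 in those labelled KO and not in control (-1.16 and -0.95), a difference that did not pass its own test (limma adjusted p = 0.274).

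*Spc24* and *Spc25*, which pair within the NDC80 complex that grips microtubules, passed in both genotypes and in control alone, respectively. *Spc24* stood at 9.61, 9.07 and 8.71 FPKM in control with vehicle and 2.42, 3.06 and 2.43 with hemin, and at 14.7, 15.3 and 16.5 and 5.02, 3.91 and 4.88 in those labelled KO. It fell by 1.48 ± 0.10 in control and 1.56 ± 0.10 in those labelled KO (limma adjusted p = 5.19e-07 and 1.79e-07). *Spc25* stood at 6.83, 6.08 and 6.0 FPKM in control with vehicle and 3.3, 3.4 and 3.81 with hemin, and at 7.56, 7.66 and 7.55 and 6.82, 8.19 and 7.63 in those labelled KO. In control it fell by 0.70 ± 0.08 (limma adjusted p = 2.40e-05) with no overlap, whereas in those labelled KO the libraries overlapped, with a difference of -0.01 ± 0.08 (95% interval -0.18 to 0.16, limma adjusted p = 0.916). The difference between these responses was 0.69 ± 0.11 (limma adjusted p = 9.41e-04), and with hemin *Spc25* stood in those labelled KO at 215% of its control level. The other subunits of the complex, *Ndc80* and *Nuf2*, kept 38.5% and 33.7% of their vehicle means in control, and 51.5% and 42.8% in those labelled KO.

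*Cenpm*, a constitutive centromere protein, stood at 9.79, 7.74 and 7.78 FPKM in control with vehicle and 2.71, 3.82 and 1.75 with hemin, and at 13.7, 13.3 and 12.9 and 3.74, 4.63 and 3.84 in those labelled KO. With *Spc24* it had the largest genotype differences under vehicle, 0.60 ± 0.17 and 0.70 ± 0.10 (limma adjusted p = 0.0179 and 1.64e-04). *Cenpe*, a kinesin that carries chromosomes to the equator, and *Cenpf* kept 38.4% and 39.8% of their vehicle means in control, and 52.3% and 39.5% in those labelled KO. *Cenpk*, with 38 to 147 fragments in a library, had the smallest log2 change of the 56 genes in control, -0.45, although its hemin mean was 52.1% of the vehicle mean. It had the lowest vehicle level of the 56 genes in both genotypes. *Cenpn* kept 31.4% and 41.99%.

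The 4 spindle genes fell in both genotypes. Under hemin all 4 passed as higher in those labelled KO than in control, where 19.7% of all genes did. *Tpx2*, which activates Aurora A and helps microtubules form around chromosomes, stood at 18.7, 17.8 and 17.98 FPKM in control with vehicle and 6.24, 6.82 and 7.08 with hemin, and at 23.9, 21.5 and 23.7 and 8.88, 9.85 and 9.22 in those labelled KO. The 4 groups did not overlap. *Nusap1*, which bundles spindle microtubules, stood at 14.8, 10.6 and 12.2 FPKM in control with vehicle and 4.17, 4.29 and 6.54 with hemin, and at 16.6, 15.3 and 15.4 and 6.52, 8.52 and 7.19 in those labelled KO. *Hmmr*, a spindle protein also known as a hyaluronan receptor, stood at 10.05, 7.94 and 8.07 FPKM in control with vehicle and 2.94, 3.15 and 4.07 with hemin, and at 10.9, 9.93 and 10.9 and 5.17, 6.61 and 4.9 in those labelled KO. For *Nusap1* and *Hmmr* the spread within groups was larger than for *Tpx2*, and the falls of 1.19 ± 0.16 and 1.15 ± 0.13 in control and 1.00 ± 0.16 and 0.83 ± 0.13 in those labelled KO passed nonetheless (limma adjusted p at most 2.19e-04). *Prc1*, which bundles the antiparallel microtubules of the central spindle, kept 41.6% and 49.3% of its vehicle mean.

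The 10 mitotic kinesins fell in both genotypes, to between 26.4% and 46.2% of the vehicle mean in control and between 28.2% and 60.5% in those labelled KO. *Kif11*, also called Eg5, which pushes the spindle poles apart, stood at 22.4, 20.01 and 21.1 FPKM in control with vehicle and 5.31, 5.6 and 7.35 with hemin, and at 26.8, 25.9 and 25.4 and 8.08, 10.7 and 9.76 in those labelled KO. It fell by 1.66 ± 0.11 in control and 1.37 ± 0.11 in those labelled KO (limma adjusted p = 8.98e-07 and 1.86e-06). *Kif23*, the motor of the centralspindlin complex, stood at 19.2, 17.2 and 16.4 FPKM in control with vehicle and 7.52, 7.82 and 9.08 with hemin, and at 16.4, 15.3 and 15.2 and 9.17, 10.2 and 8.99 in those labelled KO. It is 1 of the 3 genes whose vehicle mean was lower in those labelled KO than in control, with a difference of -0.16 ± 0.08 that did not pass (limma adjusted p = 0.168). *Kif20a*, which carries the passenger complex to the midzone, stood at 12.6, 10.2 and 11.7 FPKM in control with vehicle and 4.25, 4.86 and 3.86 with hemin, and at 15.6, 17.1 and 15.3 and 5.71, 7.49 and 6.24 in those labelled KO. *Kif18b*, which shortens the plus ends of astral microtubules, stood at 7.98, 8.39 and 8.37 FPKM in control with vehicle and 2.33, 2.2 and 1.99 with hemin, and at 10.8, 10.3 and 9.91 and 4.59, 4.51 and 4.25 in those labelled KO. Its spread was small in every group, its fall in control was 1.54 ± 0.06 against 1.06 ± 0.06 in those labelled KO, and the difference of 0.49 ± 0.09 between them passed (limma adjusted p = 0.00213). Of the others, *Kif22*, which moves chromosome arms, and *Kif2c*, which removes faulty attachments, kept 33.4% and 36.1% in control, and *Kif15* was the 1 kinesin with a lower mean in those labelled KO than in control under hemin (-0.04 ± 0.12, limma adjusted p = 0.826).

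The 5 cytokinesis genes fell in both genotypes, and *Ect2* set the genotypes apart more than any other member. *Ect2*, the exchange factor that activates RHOA at the site of cleavage, stood at 22.1, 19.98 and 20.01 FPKM in control with vehicle and 4.56, 5.51 and 6.48 with hemin, and at 23.6, 23.9 and 22.7 and 12.8, 13.9 and 13.7 in those labelled KO. Vehicle levels were close, with a difference of 0.17 ± 0.10 that did not pass (limma adjusted p = 0.202), while hemin lowered *Ect2* by 1.74 ± 0.10 in control (limma adjusted p = 1.66e-07) and by 0.75 ± 0.10 in those labelled KO (limma adjusted p = 4.58e-05). Under hemin the level in those labelled KO was 244% of that in control, and the difference of 1.16 ± 0.10 (limma adjusted p = 3.82e-06) was the 1 genotype difference among the 56 genes above 1 on the log2(FPKM + 1) scale, which 3.1% of all genes passed under hemin. With a pseudocount of 0.1 and by limma-voom, 3 of the 56 passed above 1, against 5.42% and 5.61% of all genes. *Racgap1*, the partner of *Kif23* in centralspindlin, which brings ECT2 to the midzone, stood at 15.6, 14.5 and 15.8 FPKM in control with vehicle and 3.71, 4.52 and 4.44 with hemin, and at 18.8, 18.9 and 18.4 and 5.4, 5.76 and 4.93 in those labelled KO. Unlike *Ect2* it fell by nearly the same amount in both genotypes, 1.65 ± 0.07 and 1.63 ± 0.07. *Cep55*, which recruits the proteins that sever the intercellular bridge, stood at 18.2, 13.5 and 14.1 FPKM in control with vehicle and 4.26, 4.2 and 5.76 with hemin, and at 14.9, 15.01 and 15.2 and 4.87, 6.5 and 5.07 in those labelled KO. Its genotype difference passed under neither treatment (-0.01 ± 0.14 and 0.18 ± 0.14). *Anln*, anillin, the scaffold of the ring, and *Cit*, citron kinase, kept 38.5% and 38.04% of their vehicle means in control, and 55.2% and 34.99% in those labelled KO.

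Both chromosome genes fell with hemin in both genotypes. *Mki67*, the proliferation marker Ki-67, which coats mitotic chromosomes, stood at 47.8, 44.5 and 45.2 FPKM in control with vehicle and 13.9, 15.3 and 17.3 with hemin, and at 62.02, 57.6 and 60.4 and 20.5, 25.1 and 21.5 in those labelled KO. The 4 groups were separate, with falls of 1.51 ± 0.09 and 1.39 ± 0.09 (limma adjusted p = 2.97e-07 and 2.62e-07) and genotype differences of 0.38 ± 0.09 with vehicle and 0.50 ± 0.09 with hemin (limma adjusted p = 0.0065 and 0.00122). *Top2a*, topoisomerase II alpha, which untangles sister DNA, stood at 40.7, 34.9 and 36.4 FPKM in control with vehicle and 10.99, 11.4 and 16.6 with hemin, and at 48.5, 46.3 and 46.99 and 16.6, 19.9 and 17.3 in those labelled KO. Its hemin levels were 34.8% and 37.9% of the vehicle means, and its genotype difference under vehicle did not pass (0.33 ± 0.13, limma adjusted p = 0.0742).

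*Foxm1* and *Mybl2*, which encode the transcription factors that drive many of these genes in G2 and M, fell more in control than in those labelled KO. *Foxm1* stood at 9.21, 9.68 and 10.5 FPKM in control with vehicle and 2.64, 3.1 and 2.59 with hemin, and at 11.98, 12.7 and 11.99 and 4.67, 5.65 and 5.32 in those labelled KO. It fell by 1.52 ± 0.08 and 1.09 ± 0.08 (limma adjusted p = 1.25e-07 and 6.75e-07), and the difference of 0.42 ± 0.11 passed (limma adjusted p = 0.0191). *Mybl2* stood at 13.2, 13.9 and 13.4 FPKM in control with vehicle and 1.53, 2.85 and 1.7 with hemin, and at 10.5, 10.2 and 10.8 and 3.42, 3.94 and 3.61 in those labelled KO. Its fall of 2.28 ± 0.13 in control (limma adjusted p = 2.09e-07) was the largest of the 56 genes and left 15.04% of the vehicle mean, against a fall of 1.30 ± 0.13 in those labelled KO (limma adjusted p = 6.96e-06). Control libraries thus ran from the highest *Mybl2* levels with vehicle to the lowest with hemin, and the difference between responses was 0.98 ± 0.18 (limma adjusted p = 0.00275). Between 81 and 156 fragments lay behind each of its values in control with hemin.

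**Figure D3:**
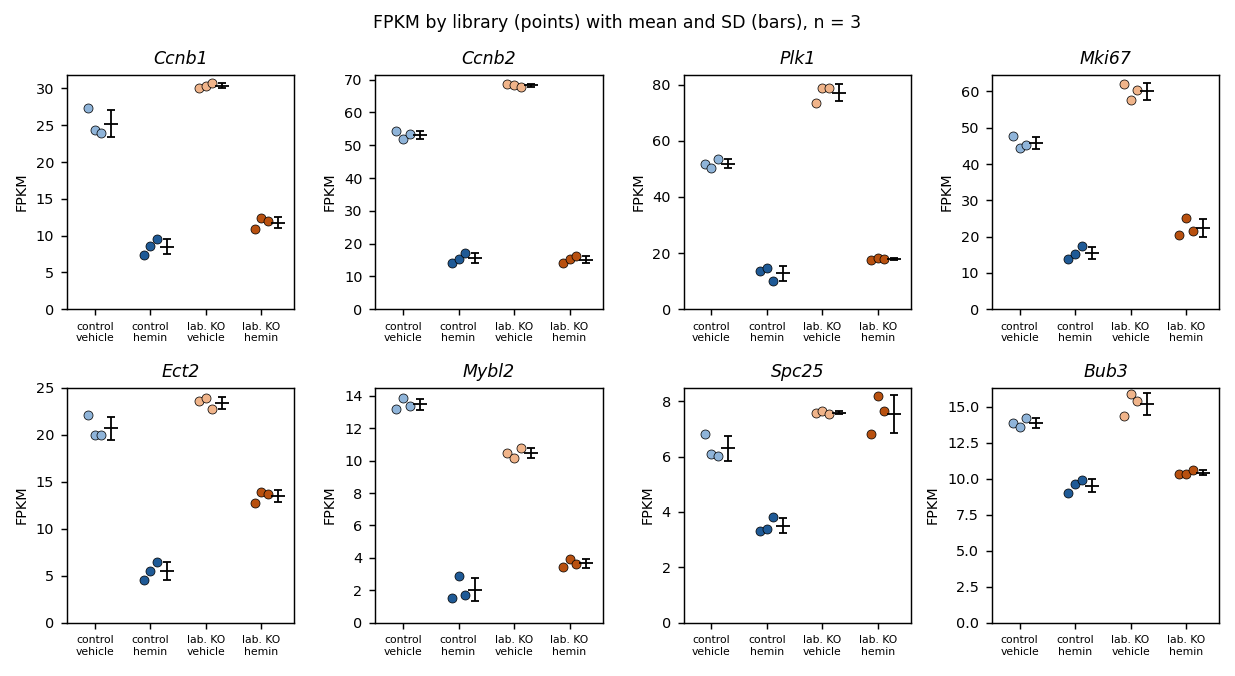
FPKM of 8 mitotic genes in each of the 12 libraries (points), with the mean and SD of each group of 3 libraries beside them, on axes that start at 0. Ccnb1, Ccnb2, Plk1 and Mki67 drop with hemin in both genotypes, Ect2 and Mybl2 drop farther in control, Spc25 drops in control while its labelled KO groups overlap near 7.5, and Bub3 drops least of the 8 in control.

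Between the labelled genotypes, every member that passed was higher in those labelled KO, 23 of 56 with vehicle and 40 with hemin. *Hmox1* under hemin goes against that label, as given above. With vehicle, the 23 that passed as higher in limma are set against 17.4% of all genes tested, and 0 passed as lower, against 16.8%, with 1 lower at an unadjusted p under 0.05. No member passed with more than 2-fold in either direction, against 3.53% of all genes as higher and 3.27% as lower. The median difference was 0.28 against 0.02 for all genes, 53 of 56 differences were positive, and 42 genes were higher without overlap of the libraries and 2 lower, against 30.6% and 26.9% of all genes. The genes that passed were 4 of 5 in the cyclin class, 2 of 3 kinases, 3 of 5 checkpoint genes, 1 of 6 anaphase genes, 0 of 3 passenger genes, 5 of 11 kinetochore genes, 1 of 4 spindle genes, 4 of 10 kinesins, 1 of 5 cytokinesis genes, 1 of 2 chromosome genes and 1 of 2 transcription factors. The negative differences were those of *Kif23*, *Cep55* and *Mybl2*, the last -0.34 ± 0.13 (limma adjusted p = 0.066). The count of 23 came to 13 without replicate 2 of control with vehicle or without replicate 2 of labelled KO with vehicle, and to 14 without replicate 1 of the latter, where 14.2%, 13.8% and 14.2% of all genes passed as higher. It came to 9 with FPKM rescaled to TPM, where 11.6% of all genes did, and to 33 in a fit of the 2 vehicle groups alone, where 24.5% did.

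With hemin, 40 of 56 passed as higher in those labelled KO in limma, against 19.7% of all genes, and 0 as lower, against 14.7%, with 0 lower at an unadjusted p under 0.05 and 0 by limma-voom. The median difference over all 56 members was 0.44, against 0.04 for all genes. For 42 genes the libraries labelled KO were higher without overlap, against 23.0% of all genes. The largest differences were those of *Ect2* (1.16), *Spc25* (0.92) and *Kif18b* (0.78), and *Ccnb2* and *Kif15* were the 2 with a negative difference, which did not pass. Rescaled to TPM, 18 passed, against 9.03% of all genes, and 22 did in a fit of the 2 hemin groups alone, against 12.3%. In all, 19 genes passed under both treatments, 21 with hemin alone, 4 with vehicle alone (*Bub1b*, *Ccnb2*, *Cenpm* and *Knstrn*) and 12 under neither. Shares of all genes in these joint classes were not computed, so the joint counts are descriptions. Without the 3 libraries high in *Gm23935*, a choice made after the data were seen, 26 of 56 passed with hemin, against 15.4% of all genes, and 26 with vehicle, against 14.7%. Replicate 2 of hemin-treated labelled KO, 1 of these 3, was the highest of its group for 46 of the 56 genes, replicate 1 of vehicle-treated control the highest of its group for 41, and replicate 1 of hemin-treated control the lowest of its group for 32, while replicate 3 of hemin-treated control was the highest for 32 and the lowest for 15. Rescaled to TPM with *Gm23935* left out of the total, 30 of 56 passed with vehicle and 39 with hemin, against 20.9% and 16.5% of all genes.

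**Figure D4:**
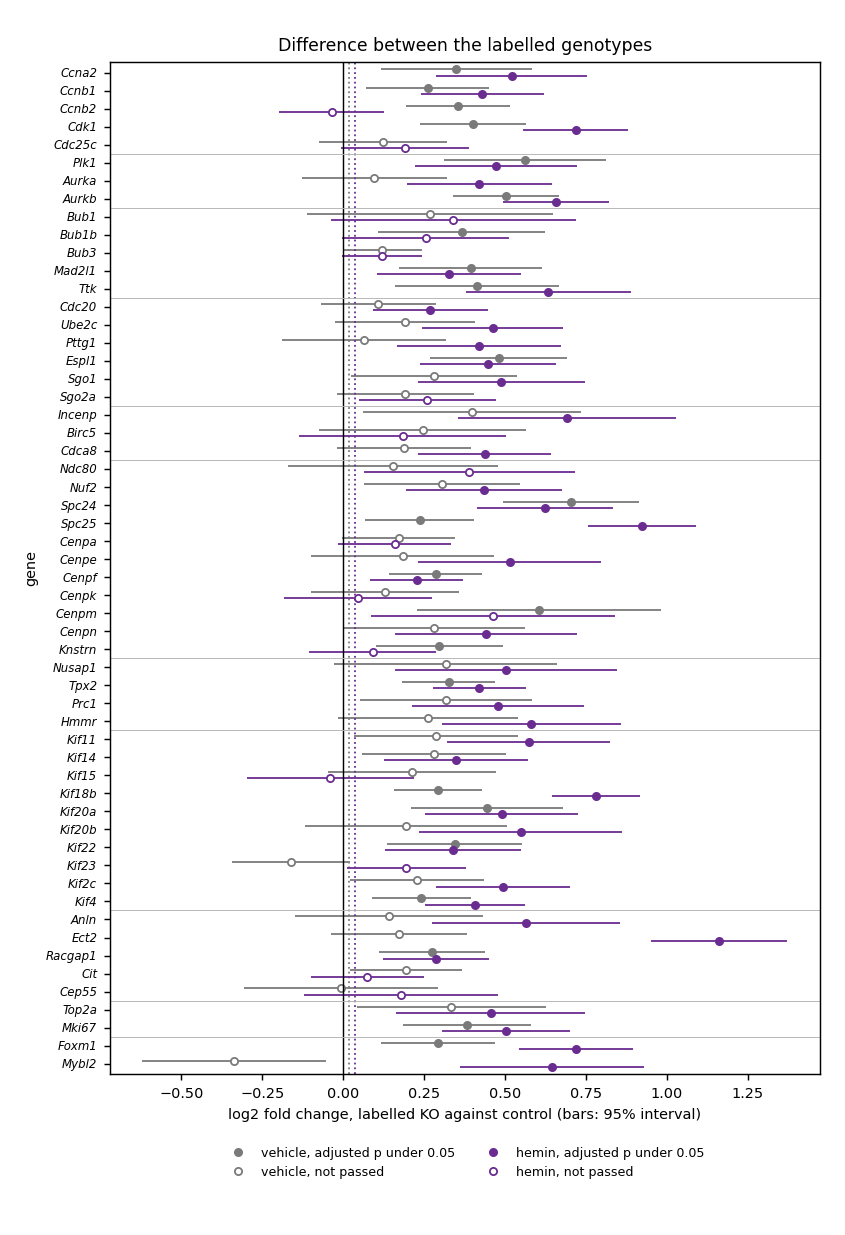
Log2 fold change of labelled KO against control (horizontal axis) for each of the 56 mitotic genes (rows), with vehicle (grey) and with hemin (purple), with 95% intervals; filled points passed at an adjusted p under 0.05 and dotted lines mark the median of all genes. Most points lie between 0 and 0.8, Ect2 with hemin lies farthest right at 1.16, and Mybl2 with vehicle farthest left at -0.34.

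The difference between the genotypes in their response to hemin was tested as the interaction term. It passed for 8 of 56 genes, 7 with a smaller fall in those labelled KO and 1 with a larger one, against 13.3% and 10.5% of all genes in these directions, so that the shares of the 56 genes, 12.5% and 1.79%, were below the background. The 7 were *Ect2* (0.99 ± 0.13, limma adjusted p = 3.85e-04), *Mybl2* (0.98 ± 0.18), *Spc25* (0.69 ± 0.11), *Kif18b* (0.49 ± 0.09), *Foxm1* (0.42 ± 0.11), *Kif23* (0.36 ± 0.12, limma adjusted p = 0.049) and *Cdk1* (0.32 ± 0.10, limma adjusted p = 0.0496), and the 1 was *Ccnb2* (-0.39 ± 0.10, limma adjusted p = 0.0186). *Ect2*, *Mybl2*, *Spc25*, *Kif18b* and *Ccnb2* passed under 21 of the 22 fits tried and lost the call with rescaling to TPM, *Foxm1* passed under 18, *Cdk1* under 7 and *Kif23* under 5. The 7 genes came to 4 without replicate 3 of labelled KO with vehicle, against 10.4% of all genes, and to 12 without replicate 3 of control with hemin, against 20.8%. The 1 gene came to 2 without the latter, against 16.2%. Rescaled to TPM, limma passed 0 of 56 in either direction, with 3 higher and 0 lower at an unadjusted p under 0.05, and with *Gm23935* left out of the total it passed 5 higher and 1 lower, against 9.14% and 14.4% of all genes. The median of the interaction over the 56 genes was 0.16, and -0.024 without the 3 libraries high in *Gm23935*.

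The fall with hemin was also seen in other genes of the cell cycle. For comparison, 26.7% of all genes passed as lower and 23.2% as higher in control, and 30.4% and 29.9% in those labelled KO. Of 28 further kinetochore genes, 24 passed as lower in control and 23 in those labelled KO, with medians of -0.81 and -0.65, led by *Pmf1*, a subunit of the MIS12 complex, at -1.44 and -1.46. Of 37 further mitotic genes, 36 and 36 passed as lower, with medians of -1.15 and -0.97, and of 15 condensin and cohesin genes 13 and 13, with medians of -1.03 and -0.77. As higher, 1 of the 28 kinetochore genes passed in each genotype. In those labelled KO, 1 of the 37 mitotic genes and 1 of the 15 condensin and cohesin genes passed as higher, against 0 and 0 in control. Of 26 genes of G1/S and replication, 23 and 19 passed as lower, with medians of -1.18 and -1.10. *Ccnd1*, cyclin D1, which couples growth signals to G1, fell from 82.0 ± 1.77 to 11.63 ± 1.32 FPKM in control and from 54.1 ± 1.00 to 15.9 ± 2.02 in those labelled KO. *Mcm3*, part of the replicative helicase, fell by 2.18 ± 0.07 and 1.88 ± 0.07. In those labelled KO, 2 of the 26 passed as higher with hemin. Between genotypes, 21 of the 26 passed as higher and 2 as lower in those labelled KO with vehicle (17.4% and 16.8% of all genes), and 22 as higher with hemin (19.7%), with median differences of 0.58 and 0.88.

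For lists less tied to mitosis in their expression, the counts with hemin are read against the 26.7% of all genes that passed as lower and the 23.2% as higher in control, and the 30.4% and 29.9% in those labelled KO. Of 14 core subunits of the anaphase-promoting complex, which is active in mitosis but whose subunits are made throughout the cycle, 4 passed as lower and 3 as higher in control, and 7 and 1 in those labelled KO, with medians of 0.05 and -0.16. Of 12 DREAM and pocket protein genes, 4 passed as lower and 2 as higher in control, and 5 and 4 in those labelled KO. Of 15 genes of cell cycle arrest, 3 passed as lower and 4 as higher in control, and 5 and 7 in those labelled KO. *Gadd45a*, a growth arrest and DNA damage gene, was higher by 0.93 ± 0.12 and 0.87 ± 0.12, while *Cdkn2c*, an inhibitor of CDK4 and CDK6, was lower by 0.98 ± 0.21 and 0.63 ± 0.21. Of 9 stem cell markers tested, 6 passed as lower and 1 as higher in control, and 7 and 1 in those labelled KO. Of 10 colonocyte markers, 4 passed as lower and 4 as higher in control, and 5 and 4 in those labelled KO. The summed FPKM of the 10 colonocyte markers ran from 2942 to 3190 in control with vehicle and from 5197 to 7586 with hemin, and from 2167 to 2222 and from 3786 to 4694 in those labelled KO. *Car1*, carbonic anhydrase 1, made most of that sum, reaching 2212 FPKM with vehicle and 6351 with hemin in control, while the list's median log2 fold change there was 0.07. Of 8 goblet cell markers, 6 and 7 passed as lower and 0 as higher in limma. The summed FPKM of the 8 goblet cell markers ran from 1587 to 1845 and from 1044 to 1408 in control, and from 1915 to 2005 and from 471 to 538 in those labelled KO. The 6 enteroendocrine markers summed to between 34.9 and 43.3 in control with vehicle and between 24.7 and 34.2 with hemin, and to between 540.2 and 568 and between 387 and 479 in those labelled KO. These cell type markers moved with hemin or genotype at the same time as the mitotic genes, and their part in the result was not tested.

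**Figure D5:**
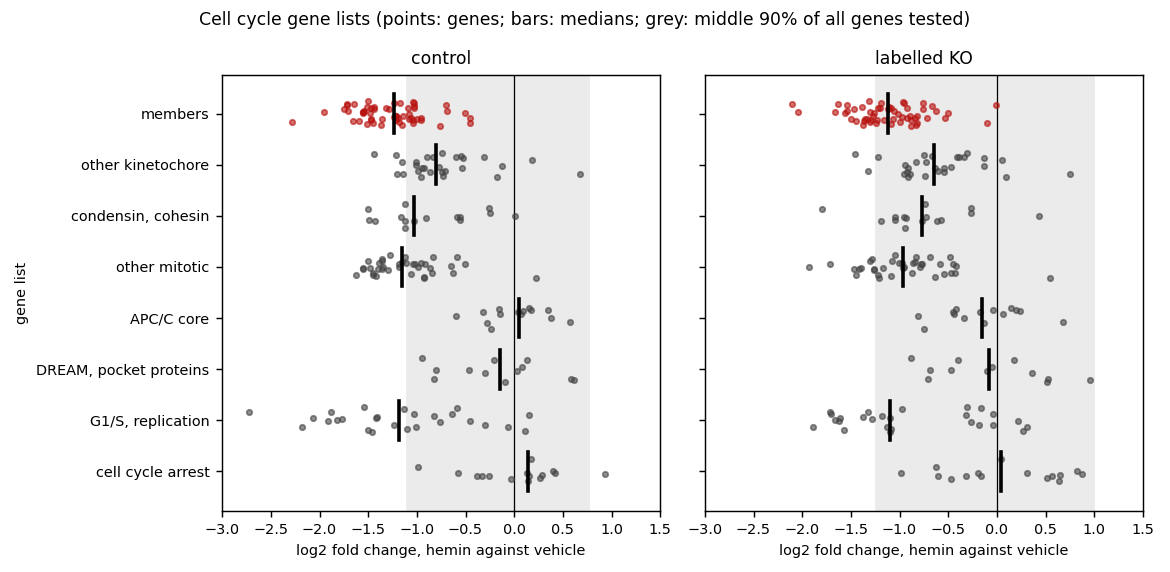
Log2 fold change of hemin against vehicle (horizontal axis) in control colonoids (left) and those labelled KO (right) for genes of 8 cell cycle lists (rows; points are genes, bars are medians), with the middle 90% of all 12740 genes in grey. The mitotic genes have medians of -1.23 and -1.12, the G1/S genes -1.18 and -1.10, and the core subunits of the anaphase-promoting complex 0.05 and -0.16.

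Within the 48 genes with a window, those with both CCAAT and CHR had the lower median level left by hemin in each genotype. The ranges overlapped, and the difference was not tested. Hemin left a median of 33.6% of the vehicle level in control for the 30 genes with both CCAAT and CHR, from 24.7% to 68.6%, and 38.2% for the other 18, from 15.0% to 68.8%. In those labelled KO the medians were 39.2% and 44.0%. The 8 genes with none of the letters searched, of which *Mybl2* and *Pttg1* are shown above, had medians of 40.4% and 41.2%. Their range in control held both ends of the 48 genes.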

How the data were processed

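The authors deposited FPKM per gene for 12 mouse colonoid libraries. The submitters' processing notes name fastp, HISAT2 2.0.5, featureCounts 1.5.0-p3 and the build mm10, with no strand setting given in the sources used here. Whole fragments came back from 100% of the FPKM values within a tolerance of 0.01, which gave the depth. The library size by which the FPKM are divided was not the total of those fragments but 103% to 104% of it in control with vehicle, 97.9% to 99.7% in control with hemin, 108% in those labelled KO with vehicle and 93.0% to 94.3% in those labelled KO with hemin. The deposited values thus hold a scaling between libraries that differs by group, after which the median-of-ratios factor of the FPKM was 1 in every library. Absolute RNA amounts per colonoid were not measured.

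Genes with FPKM of at least 1 in at least 3 libraries (12740) were fitted on log2(FPKM + 1) with limma 3.58.1 in R 4.3.3, as 4 group means with a trended prior and 8 residual degrees of freedom. All 56 members passed this filter. The interaction is the hemin response in labelled KO minus that in control. An adjusted p under 0.05 (Benjamini-Hochberg over all genes tested) counted as passed, two-sided, and 2-fold means a log2 fold change beyond 1. The script was tested on simulated data. Alternatives changed the pseudocount (0.1), the filter (none, or mean FPKM of at least 5), the scaling (TPM, with and without Gm23935), the model, the libraries and the replicate block. On the recovered fragments, limma-voom passed 2987 genes as higher and 3436 as lower with hemin in control, and 3979 and 4033 in those labelled KO.

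The members and lists were chosen with earlier results of these data known. Values by library are given for the 3 members of highest mean in each role and the 3 with the largest change that passed in each comparison; of the other lists, genes were named by the same kind of rule. Promoters are RefSeq windows of GRCm38.p6. Protein sequences and exon-level reads were not used here. Python 3.11.15, pandas 2.3.3 and matplotlib 3.10.9 made the summaries and plots.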

Additional observations from a re-analysis of the deposited data

Results flagged for a closer look

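The response to hemin differed between the labelled genotypes, by the interaction term of the limma fit, for 8 of the 56 mitotic genes. The shares of members, 12.5% with a smaller fall and 1.79% with a larger one, were below the 13.3% and 10.5% of all genes. It was smaller in those labelled KO for *Ect2* (0.99), *Mybl2* (0.98), *Spc25* (0.69), *Kif18b* (0.49), *Foxm1* (0.42), *Kif23* (0.36) and *Cdk1* (0.32), and larger for *Ccnb2* (-0.39), on the log2(FPKM + 1) scale. *Kif23* and *Cdk1* passed in only 5 and 7 of 22 fits, and all 8 calls were lost in TPM.

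Among the other genes named from the lists, the same term passed for *Ccnd1* (1.00), the condensin subunit *Smc2* (0.44) and the centrosomal kinase *Nek2* (0.40), which fell less in those labelled KO, and for *Cenpp* (-0.61), the CDK1 phosphatase *Cdc25b* (-0.54) and *Anapc5* (-0.51), which fell more. *Hmox1*, the targeted gene, rose more with hemin in those labelled KO than in control (2.81), against the direction the label would give. No test for single outlying libraries was made within the groups of 3.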

How the results depend on the processing

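In every fit tried, no call of a member as lower with hemin was lost or changed direction in either genotype where the gene was tested. The median fall of the members in control moved to -1.49 with a pseudocount of 0.1, -1.37 with a mean FPKM of at least 5, -1.57 in TPM, -1.51 in TPM without *Gm23935* and -1.52 by limma-voom, and to between -1.33 (without replicate 3 of hemin-treated control) and -1.22 with 1 library left out. In those labelled KO it moved to -1.29, -1.55, -1.45 and -1.29 with the pseudocount, TPM, TPM without *Gm23935* and limma-voom. In TPM the median of all genes was -0.19 with hemin in control, -0.31 in those labelled KO and 0.16 for genotype under vehicle, against -0.013, -0.0019 and 0.019. Genotype counts were less stable. Under vehicle, 9 members passed as higher in TPM, 30 in TPM without *Gm23935* and by limma-voom, 33 with only the groups compared (where 11.6%, 20.9%, 19.0% and 24.5% of all genes did) and 13 to 31 with 1 library left out, with a median of 0.44 in TPM. As lower, 1 passed with only the groups compared and with limma-voom, and 0 to 1 with 1 library left out. Under hemin, 18 passed in TPM, 39 in TPM without *Gm23935*, 22 with only the groups compared and 26 without the 3 libraries high in *Gm23935* (9.03%, 16.5%, 12.3% and 15.4% of all genes), with medians of 0.54 with the pseudocount, 0.55 by limma-voom and 0.32 without those 3 libraries. The interaction passed as higher for 0 in TPM, for 5 in TPM without *Gm23935* and for 4 to 12 with 1 library left out (2.45%, 9.14% and 10.4% to 20.8% of all genes), and as lower for 0 in TPM, for 1 in TPM without *Gm23935* and for 1 to 2 with 1 library left out. Its median was 0.046 in TPM and 0.25 by limma-voom, and it reversed to -0.024 without the 3 libraries, a choice made after the data were seen. The cause of these changes was not tested. Depth limits the members with few fragments, such as *Cenpk* with 38 to 147.

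With the replicate number as a block, 56 and 54 members passed as lower with hemin in control and labelled KO (25.2% and 29.3% of all genes). As higher by genotype, 22 passed under vehicle and 39 under hemin (16% and 17.6%). By the interaction, 5 passed as higher and 1 as lower (11.2% and 8.89%). Same-numbered libraries did not deviate together (mean correlation of deviations -0.04 over 18 pairs, against 0.02 over 36 pairs of other numbers), so the numbers were not taken to pair the libraries.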
